A study of Spirodela polyrhiza with 16 samples.

Results

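Roots of the giant duckweed Spirodela polyrhiza were compared after 1 day in medium without phosphate and after the same day in full medium. All samples were clone 9509, a floating plant with leaf-like fronds and short roots that hang in the water. Each flask of 250 ml held 100 ml of medium, which was replaced on day 10 by full medium for the control or by medium lacking KH2PO4 for the treatment. On day 11 the fronds and roots of each flask were separated, and the plants of 1 flask were pooled as 1 replicate. The 8 root libraries, 4 control and 4 without phosphate, were taken from 16 in all, the others being fronds of the same 2 treatments. Libraries are named by their column number, control libraries 1 to 4 and no-phosphate libraries 5 to 8, and values per library are always given in that order. The table holds 20389 gene models. Levels are in FPKM, fragments scaled to gene length and library size, and the 16598 models that averaged 0.5 FPKM or more over the 16 libraries were compared in roots.

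Phosphate is part of nucleic acids, phospholipids, ATP and sugar phosphates, and plants take it up as the inorganic ion. In Arabidopsis and rice, factors of the PHOSPHATE STARVATION RESPONSE family switch on phosphate transporters, secreted acid phosphatases and enzymes that swap phospholipids for galactolipids and sulfolipids. SPX-domain proteins hold these factors back while inositol pyrophosphates report enough phosphate in the cell. Starved cells are also known for reactions of carbon metabolism that free phosphate or do without ATP, such as phosphoenolpyruvate carboxylase. Duckweed roots are unbranched, and the underside of the frond also touches the medium.

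The whole reads behind the values summed to between 6336541 and 12437151 per root library, with a mean of 7207233 in control and 9633438 without phosphate. At these depths 3 reads on 1 kb of gene length were worth 0.213 to 0.435 FPKM. Each treatment group had 1 library that stood nearer to the other group. On the first principal component of the 8 root libraries (34.5% of the variance), control libraries 2, 3 and 4 lay at -30.9, -27.9 and -25.9 and no-phosphate libraries 6, 7 and 8 at 14.4, 34.9 and 41.3. On the second component (20.7%) no-phosphate library 6 stood apart at 43.3, with libraries 5, 7 and 8 at -22.2, -2.95 and -14.3. Controls lay there between -20.2 and 19.1. Back on the first component, control library 1 lay at 9.77 and no-phosphate library 5 at -15.6. Control library 1 correlated best with no-phosphate library 7 (r = 0.979) and no-phosphate library 5 with control library 2 (r = 0.981), across genes, which are not independent replicates. Labels were kept as given, and whether these 2 libraries carry each other's labels was not tested and cannot be told from the files. It bears on every group mean and count below. Transcripts of 72 photosynthesis genes summed to 70777 to 95451 FPKM in control roots and 66784 to 85507 FPKM without phosphate, below the 179734 to 203091 FPKM of fronds but far from 0. For 31 frond surface genes (wax and protoderm) the sums were 229 to 314 and 254 to 310.2 FPKM in roots and at least 2167 FPKM in fronds, and 5 of them were at 0 in all libraries of each root group. The 88 genes listed as root markers summed to 7551 to 9327 FPKM in roots and 5654 to 6855 FPKM in fronds, so this list separated the tissues only weakly.

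**Figure D1:**
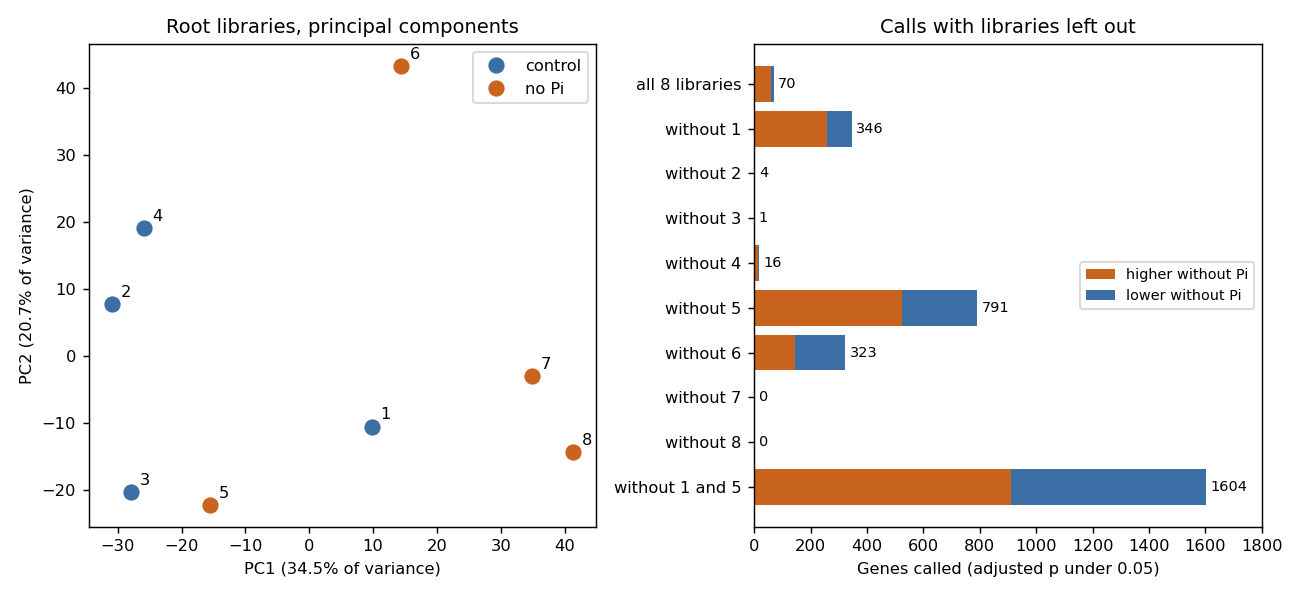
Positions of the 8 root libraries on the first 2 principal components of log2(FPKM + 1), which hold 34.5% and 20.7% of the variance, with column numbers beside the points (left), and the number of genes called with all 8 libraries and with libraries left out (right). Control library 1 (9.77 on the first component) and no-phosphate library 5 (-15.6) lie away from the other libraries of their groups. On the second component no-phosphate library 6 (43.3) lies away from its group. The number of called genes runs from 0 without library 7 or 8 to 1604 without libraries 1 and 5.

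The main question was which root transcripts differed after 1 day without phosphate. By limma on log2(FPKM + 1), 70 of the 16598 genes (0.422%) were called, meaning an adjusted p under 0.05. Higher without phosphate were 59 (0.355%) and lower 11 (0.0663%). The higher ones included genes of phosphoenolpyruvate and sugar phosphate metabolism, inositol synthesis, isoprenoids, ascorbate synthesis and protein folding. The median change of all genes was -0.01 on the log2 scale, with a median SE of 0.18. Called changes ran from 0.43 upwards in size, with a median of 0.82. Changes of 1 or more were found in 173 tested genes, 112 higher and 61 lower, and 21 of these were called, 16 higher and 5 lower. The called genes had a median level of 40.1 FPKM in roots against 14.0 FPKM for all tested genes, and a median coding length of 1005 against 978 bp. In bulk RNA of whole roots, more cells of a type cannot be told apart from more RNA per cell.

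The 4 control and 4 no-phosphate libraries did not overlap for 69 of the 70 called genes. Over all tested genes 885 (5.33%) did not overlap, 572 of them higher (3.45%) and 313 lower (1.89%). No-phosphate library 5 was the lowest of its group in 47 of the 59 risen genes, and control library 1 was the highest of its group in 34. Control library 3 was the lowest control in 39 risen genes and the highest control in 8 of the 11 fallen ones. The spread behind these calls was estimated over roots and fronds together. With the 8 root libraries fitted alone 0 genes were called, and 1786 had an unadjusted p under 0.05. The number of called genes also depended on single libraries. It was 346, 4, 1 and 16 without control library 1, 2, 3 or 4, and 791, 323, 0 and 0 without no-phosphate library 5, 6, 7 or 8. Without libraries 1 and 5 together, an alternative chosen after their positions were seen, 1604 genes were called, 912 higher and 692 lower, and all 70 were among them. That pair was left out because each lay with the other group, so the larger count rests on the choice. Rescaling the FPKM of each library to the same sum left 25 called genes, 16 higher and 9 lower, which is a less one-sided split than 59 and 11. All 70 genes kept their direction in each of the 21 alternatives in which they were tested. For the 69 whose groups did not overlap, leaving out libraries could not turn the direction. The other alternatives refitted the same libraries, so the kept direction is no separate evidence.

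**Figure D2:**
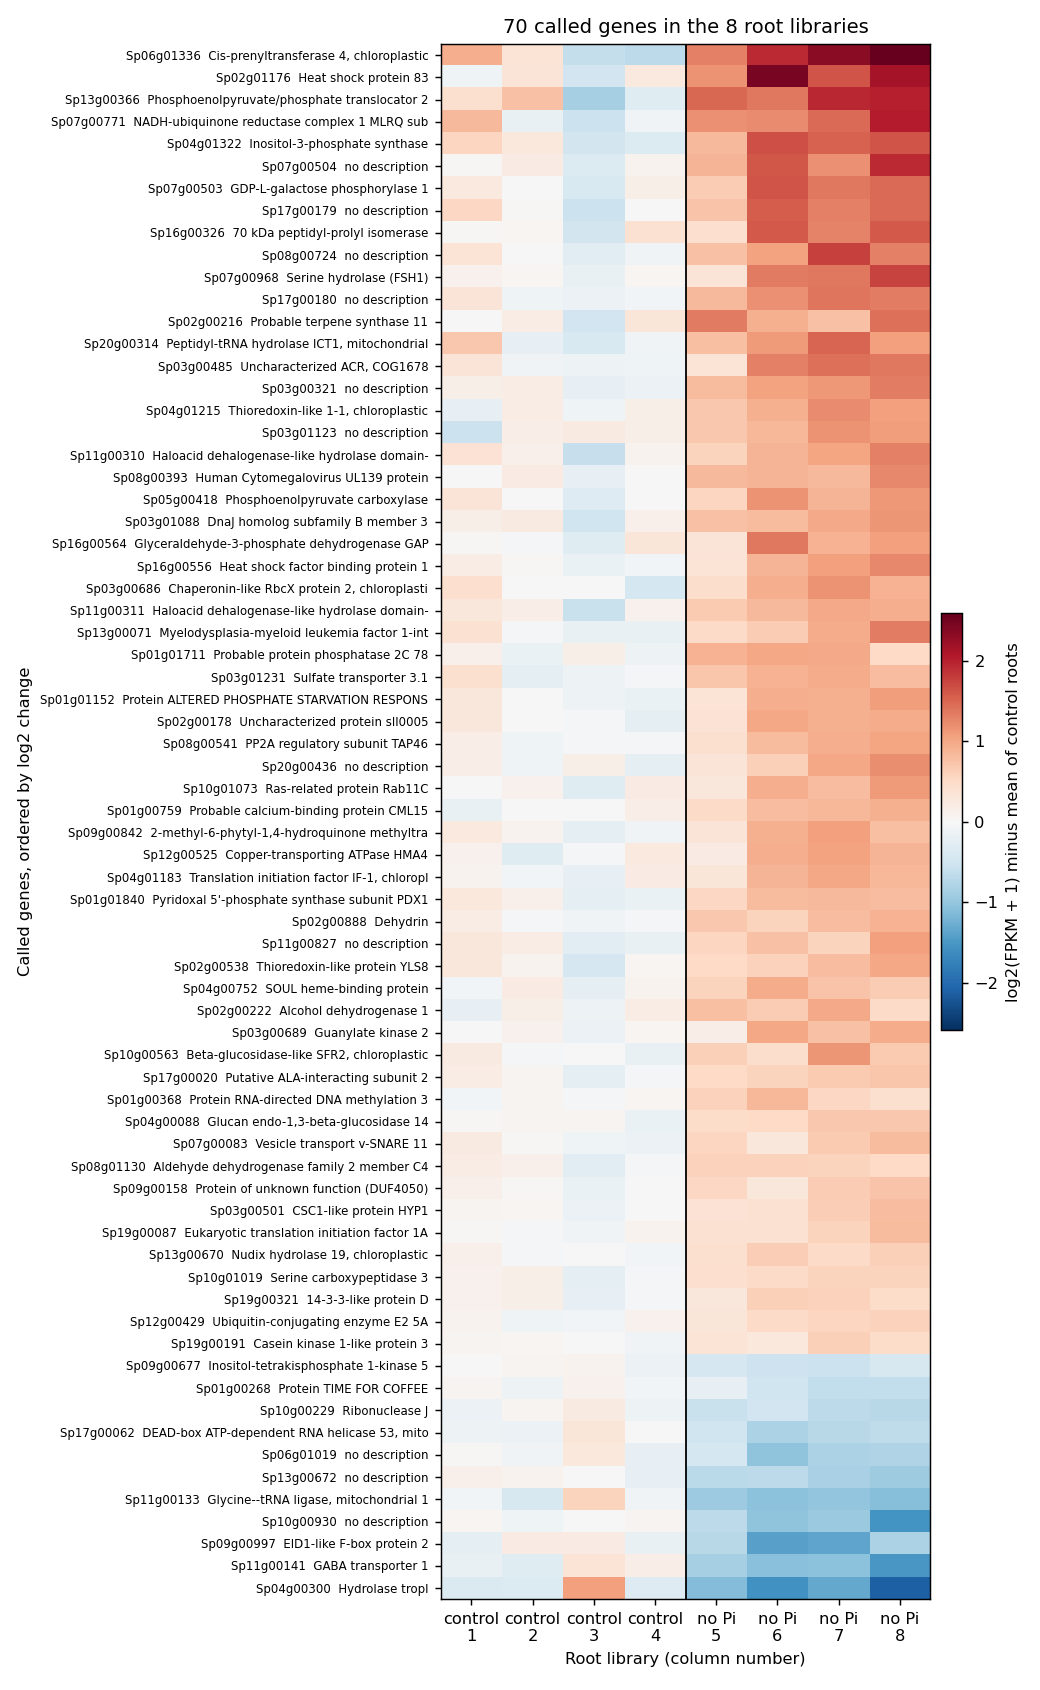
Each row is 1 of the 70 called genes and each column 1 of the 8 root libraries. Colour is log2(FPKM + 1) minus the mean of the 4 control libraries, and rows are ordered by the log2 change. Among the 59 risen genes no-phosphate library 5 is the palest of its group in 47.

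Among the called genes with a description, 51 rose and 8 fell. They are described by the role of the homolog that the deposited table names, and such a name is no evidence of function in duckweed. The functional groups were made after the calls were known, so their counts describe the list and carry no test. Coordinates are those of the deposited table, whose genome build is not given in the sources used here.

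The group of phosphoenolpyruvate and sugar phosphate metabolism held 6 genes, with an alcohol dehydrogenase of ethanol fermentation counted among them, and all 6 rose. The homolog of PHOSPHOENOLPYRUVATE/PHOSPHATE TRANSLOCATOR 2 (Sp13g00366, chromosome 13, 1798502 to 1803048), which in Arabidopsis exchanges phosphoenolpyruvate for phosphate across the plastid envelope, had 18, 23.3, 6.86 and 10.4 FPKM in control and 39.1, 35.7, 54.2 and 56.7 FPKM without phosphate. All no-phosphate libraries stood above all controls, and their mean was 3.17 times that of the controls, a log2 change of 1.70 ± 0.29 (SE, adjusted p = 0.028). Phosphoenolpyruvate carboxylase (Sp05g00418, chromosome 5, 1867675 to 1880091), which makes oxaloacetate from phosphoenolpyruvate and frees phosphate, had 395, 313, 249 and 316 FPKM in control and 459, 709, 583 and 682 FPKM without phosphate. It was among the most abundant called transcripts, and its groups did not overlap, with a change of 0.93 ± 0.17 (SE, adjusted p = 0.0287). The plastid glycolytic glyceraldehyde-3-phosphate dehydrogenase GAPCP1 (Sp16g00564) had 19.7, 18.7, 15.3 and 24.1 FPKM in control and 24.5, 51.3, 36.5 and 41 FPKM without phosphate. Here no-phosphate library 5 lay just above the highest control, library 4, and the change was 0.91 ± 0.19 (SE, adjusted p = 0.0461). Alcohol dehydrogenase 1 (Sp02g00222), the last enzyme of ethanol fermentation, rose from 32.7 ± 4.75 to 54.9 ± 8.06 FPKM (mean ± SD, n = 4 each), by 0.73 ± 0.14 (SE, adjusted p = 0.0386).

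The remaining pair of that group were neighbours. Sp11g00310 (chromosome 11, 1582202 to 1582953) and Sp11g00311 (chromosome 11, 1583002 to 1583573) lie on the same strand 48 bp apart, and both are homologs of Sgpp, an Arabidopsis phosphatase of sugar phosphates. Sp11g00310 had 92.4, 77.7, 46.7 and 75.6 FPKM in control and 107, 131, 146 and 177 FPKM without phosphate. Its neighbour had 183, 167, 99.8 and 160.5 FPKM in control and 237, 269, 294 and 287 FPKM without phosphate. Control library 3 was the lowest control for both and the groups did not overlap for either. Sp11g00310 changed by 0.95 ± 0.20 (SE, adjusted p = 0.0461) and Sp11g00311 by 0.86 ± 0.16 (SE, adjusted p = 0.0324). Whether reads were counted by strand is not stated, and 2 models this close could be parts of 1 transcript, which was not tested.

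Genes of the phosphate response, inositol phosphates and nucleotides numbered 5, of which 4 rose and 1 fell. Inositol-3-phosphate synthase (Sp04g01322, chromosome 4, 8021249 to 8026887) turns glucose 6-phosphate into inositol phosphate, the first step to inositol and to phytate, and the enzyme was first known in Spirodela as an abscisic acid-induced transcript. Its libraries held 44.5, 36.8, 21.3 and 23.5 FPKM in control and 54.8, 98, 89.3 and 95.3 FPKM without phosphate. All no-phosphate libraries were above the highest control, library 1, and library 5 was the lowest of them, with a change of 1.42 ± 0.23 (SE, adjusted p = 0.026). A homolog of ALTERED PHOSPHATE STARVATION RESPONSE 1 (Sp01g01152), which acts in the root meristem of Arabidopsis, had 28.9, 23.4, 21.1 and 20.7 FPKM in control and 30.3, 45.6, 44.7 and 50.4 FPKM without phosphate. Its groups were separated by the small gap between control library 1 and no-phosphate library 5, and the change was 0.82 ± 0.15 (SE, adjusted p = 0.0287). Inositol-tetrakisphosphate 1-kinase 5 (Sp09g00677), which adds a phosphate to inositol phosphates, moved the other way with 15.6, 16.7, 16.8 and 14.1 FPKM in control and 11.4, 10.5, 10.5 and 11.6 FPKM without phosphate. The no-phosphate values were close together and all below the controls, a change of -0.48 ± 0.09 (SE, adjusted p = 0.0386). Nudix hydrolase 19 (Sp13g00670), which in Arabidopsis splits nucleotide cofactors, rose from 25.6 ± 1.75 to 37.7 ± 2.67 FPKM, by 0.54 ± 0.10 (SE, adjusted p = 0.0307). Guanylate kinase 2 (Sp03g00689), which makes GDP from GMP, rose from 19.6 ± 1.66 to 33.9 ± 8.2 FPKM, by 0.73 ± 0.15 (SE, adjusted p = 0.0455).

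**Figure D3:**
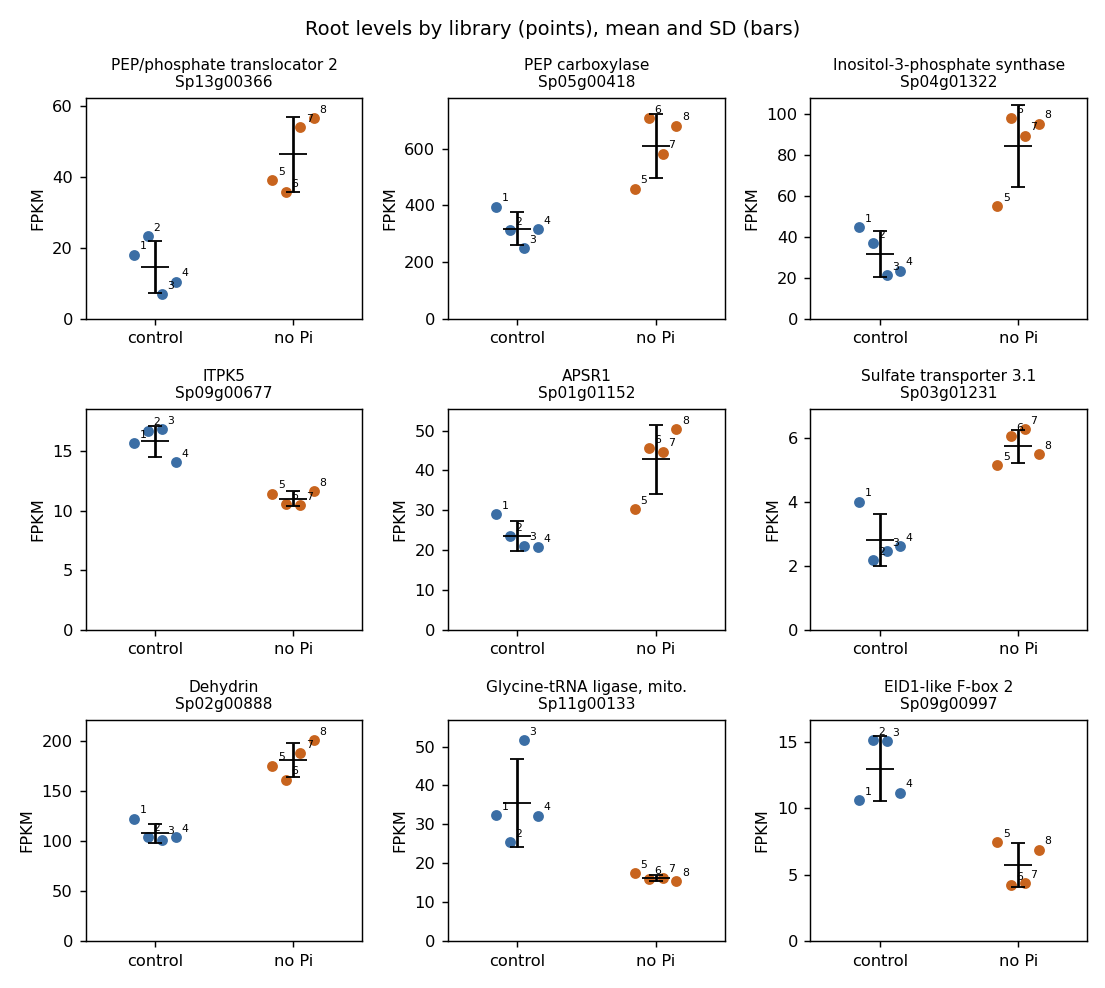
FPKM of 9 called genes in the 8 root libraries, 1 panel per gene on a linear axis from 0, with column numbers beside the points and bars for the mean and SD of each group of 4. Phosphoenolpyruvate carboxylase lies between 249 and 395 FPKM in control and between 459 and 709 FPKM without phosphate.

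Isoprenoid, vitamin and redox genes made a group of 6 that all rose. Cis-prenyltransferase 4 (Sp06g01336, chromosome 6, 8296159 to 8298844), of a family that joins isoprene units into long chains, had 77.3, 51.5, 25.5 and 24.5 FPKM in control and 99.7, 155, 205 and 245 FPKM without phosphate. Its controls were widely spread with library 1 highest, all no-phosphate values were higher, and the change of 2.04 ± 0.39 (SE, adjusted p = 0.0344) was the largest of the 70 called genes. GDP-L-galactose phosphorylase 1 (Sp07g00503), the enzyme that controls ascorbate synthesis in Arabidopsis, had 40.7, 33.5, 25.4 and 37.5 FPKM in control and 54, 107, 88.9 and 95.6 FPKM without phosphate. Its groups did not overlap, and the change was 1.28 ± 0.20 (SE, adjusted p = 0.026). A called gene without description, Sp07g00504, lies 111 bp from it on the same strand of chromosome 7. It had 22.3, 25.5, 16.7 and 23.4 FPKM in control and 40.6, 68, 50.2 and 86.1 FPKM without phosphate, with no overlap and a change of 1.40 ± 0.24 (SE, adjusted p = 0.0287). Whether the neighbours share a transcript was not tested.

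Terpene synthase 11 (Sp02g00216), of a family that makes volatile and defence terpenes, was low, with 0.743, 0.971, 0.23 and 1.15 FPKM in control and 3.41, 2.31, 1.95 and 3.65 FPKM without phosphate. The controls lie near the depth limit given above, and the change of 1.12 ± 0.20 (SE, adjusted p = 0.0287) is understated on the log2(FPKM + 1) scale. Thioredoxin-like 1-1 of the chloroplast (Sp04g01215), a small redox protein, had 157, 209, 168 and 202 FPKM in control and 296, 345, 426 and 380.5 FPKM without phosphate. The highest control, library 2, lay well below the lowest no-phosphate library, and the change was 0.97 ± 0.16 (SE, adjusted p = 0.026). The homolog of 2-methyl-6-phytyl-1,4-hydroquinone methyltransferase (Sp09g00842), an enzyme of tocopherol and plastoquinone synthesis, had 224, 201, 158 and 177 FPKM in control and 238, 355, 392 and 325 FPKM without phosphate. Control library 1 and no-phosphate library 5 nearly met, and the change was 0.77 ± 0.16 (SE, adjusted p = 0.0455). The vitamin B6 enzyme PDX1 (Sp01g01840) rose from 259 ± 43.5 to 434 ± 41.7 FPKM, by 0.75 ± 0.13 (SE, adjusted p = 0.0287).

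All 5 called genes of the chaperone group rose, 1 of them named only by the domain of a protein that restrains heat shock factors. HEAT SHOCK PROTEIN 83 (Sp02g01176), named after a fly chaperone of the HSP90 family, had 0.765, 1.4, 0.356 and 1.27 FPKM in control and 3.25, 9.39, 4.86 and 7.45 FPKM without phosphate. The ratio of its means, 6.58, rests on control values near 1 FPKM, and the log2 change was 1.85 ± 0.33 (SE, adjusted p = 0.0287). A 70 kDa peptidyl-prolyl isomerase (Sp16g00326), an enzyme that turns proline bonds in folding proteins, had 34.6, 35.1, 23.9 and 44.6 FPKM in control and 45.7, 103, 83.3 and 104 FPKM without phosphate. No-phosphate library 5 was only just above control library 4, while libraries 6, 7 and 8 were far higher, and the change was 1.22 ± 0.23 (SE, adjusted p = 0.0307). A DnaJ homolog (Sp03g01088), a partner of HSP70 chaperones, had 42.2, 44.7, 26.4 and 41.8 FPKM in control and 64.8, 67.8, 76 and 84.9 FPKM without phosphate. Control library 3 was the low one, and the change was 0.92 ± 0.19 (SE, adjusted p = 0.0455). A gene with the domain of heat shock factor binding protein 1 (Sp16g00556), which in animals and Arabidopsis restrains heat shock factors, had 62.1, 55.3, 48 and 51.2 FPKM in control and 68.8, 99.5, 114 and 128 FPKM without phosphate. Its groups did not overlap, with a change of 0.88 ± 0.16 (SE, adjusted p = 0.0307). RbcX protein 2 (Sp03g00686), a chaperone that assembles Rubisco, had 41.2, 30.7, 30.8 and 21.8 FPKM in control and 42.3, 59.6, 69.3 and 57.5 FPKM without phosphate. Control library 1 and no-phosphate library 5 were almost equal there, and the change was 0.87 ± 0.17 (SE, adjusted p = 0.0388).

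Genes of gene expression in mitochondria and plastids split into 3 that rose and 3 that fell, with a respiratory chain protein counted among the risen. That protein (Sp07g00771) carries the domain of the MLRQ subunit of mitochondrial NADH-ubiquinone reductase and had 23.7, 11.1, 8.41 and 12 FPKM in control and 30.4, 31.1, 37.1 and 55.6 FPKM without phosphate. Control library 1 was well above the other controls but below every no-phosphate library, and the change was 1.47 ± 0.28 (SE, adjusted p = 0.0344). The homolog of ICT1 (Sp20g00314), which in human mitochondria frees stalled ribosomes, had 16.9, 8.62, 7.46 and 9.43 FPKM in control and 18, 22.8, 30.5 and 22.3 FPKM without phosphate. Again control library 1 nearly reached no-phosphate library 5, and the change was 1.11 ± 0.20 (SE, adjusted p = 0.0287). Plastid translation initiation factor IF-1 (Sp04g01183) rose from 26.4 ± 3.55 to 46.1 ± 9.04 FPKM, by 0.76 ± 0.15 (SE, adjusted p = 0.0374).

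Of the 3 that fell, mitochondrial glycine-tRNA ligase 1 (Sp11g00133, chromosome 11, 718946 to 722916), which loads glycine onto its tRNA, had 32.3, 25.4, 51.6 and 32.2 FPKM in control and 17.4, 15.9, 16.3 and 15.3 FPKM without phosphate. The no-phosphate libraries lay close together and all below the controls, of which library 3 was highest. Its change was -1.03 ± 0.16 (SE, adjusted p = 0.0194), and it passed in 18 of 21 alternatives, the most of the 70 genes. DEAD-box RNA helicase 53 (Sp17g00062), which helps splice mitochondrial introns in Arabidopsis, had 19.3, 18.9, 26.6 and 21 FPKM in control and 14.6, 11.6, 12.5 and 13.2 FPKM without phosphate. All no-phosphate values were below all controls, a change of -0.67 ± 0.12 (SE, adjusted p = 0.0287). Ribonuclease J (Sp10g00229), which trims plastid RNA, had 8.9, 10.5, 12 and 9.06 FPKM in control and 6.43, 6.88, 5.86 and 5.68 FPKM without phosphate. It was lower in every no-phosphate library than in any control, a change of -0.62 ± 0.12 (SE, adjusted p = 0.0444).

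Membrane, transport and vesicle genes numbered 8, with 7 higher and 1 lower. Sulfate transporter 3.1 (Sp03g01231), a chloroplast sulfate carrier in Arabidopsis, had 4.01, 2.18, 2.45 and 2.62 FPKM in control and 5.13, 6.05, 6.27 and 5.49 FPKM without phosphate. Control library 1 was the highest control and all no-phosphate libraries exceeded it, with a change of 0.84 ± 0.13 (SE, adjusted p = 0.0194). The copper-transporting ATPase HMA4 (Sp12g00525) had 32, 23.8, 28.8 and 35.3 FPKM in control and 34.3, 58.2, 62 and 55.1 FPKM without phosphate. It was the 1 called gene whose groups overlapped, since no-phosphate library 5 lay below control library 4, and the change was 0.76 ± 0.16 (SE, adjusted p = 0.0465). The small GTPase Rab11C (Sp10g01073), of a family that steers vesicles, had 75.4, 80.8, 60.1 and 86.8 FPKM in control and 92.1, 144, 132 and 162 FPKM without phosphate. Its groups did not overlap, and the change was 0.78 ± 0.15 (SE, adjusted p = 0.0386). The transporter that fell was GABA TRANSPORTER 1 (Sp11g00141), which imports the amino acid GABA in Arabidopsis, with 5.47, 4.92, 8.45 and 7.29 FPKM in control and 3.09, 2.5, 2.55 and 1.62 FPKM without phosphate. All no-phosphate libraries were below all controls, a change of -1.12 ± 0.19 (SE, adjusted p = 0.028).

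The other 4 of that group rose by less. SFR2 (Sp10g00563), an Arabidopsis galactolipid-remodelling enzyme of the plastid envelope known from freezing tolerance, rose from 9.92 ± 1.31 to 17.2 ± 3.91 FPKM, by 0.72 ± 0.14 (SE, adjusted p = 0.0386). ALA-interacting subunit 2 (Sp17g00020), a partner of phospholipid flippases, rose from 64.9 ± 8.07 to 99.8 ± 6.69 FPKM, by 0.62 ± 0.12 (SE, adjusted p = 0.0359). The SNARE protein VTI11 (Sp07g00083), which fuses vesicles with the vacuole, went from 11.8 ± 1.55 to 18.3 ± 2.9 FPKM, by 0.59 ± 0.12 (SE, adjusted p = 0.0489). The CSC1-like protein HYP1 (Sp03g00501), of a family of calcium-permeable channels opened by osmotic stress, rose from 19.2 ± 1.33 to 28.8 ± 4.24 FPKM, by 0.55 ± 0.11 (SE, adjusted p = 0.0455).

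All 5 called signalling genes rose. Protein phosphatase 2C 78 (Sp01g01711) had 6.61, 5.13, 6.71 and 5.35 FPKM in control and 11.9, 12.7, 12.6 and 8.83 FPKM without phosphate. Here library 8, not 5, was the lowest without phosphate, and the change was 0.85 ± 0.14 (SE, adjusted p = 0.0281). TAP46 (Sp08g00541), a regulatory subunit of protein phosphatase 2A that acts with the TOR kinase in Arabidopsis, had 25.4, 20.5, 21.7 and 21.7 FPKM in control and 30.1, 40.0, 43.6 and 46 FPKM without phosphate. Its controls were tight and the groups did not overlap, with a change of 0.80 ± 0.12 (SE, adjusted p = 0.0194). The calcium-binding protein CML15 (Sp01g00759) had 70.7, 81.1, 81 and 90.3 FPKM in control and 114, 142, 146 and 154 FPKM without phosphate. Every no-phosphate library was higher, by 0.77 ± 0.15 (SE, adjusted p = 0.0444). A 14-3-3 protein (Sp19g00321), which binds phosphorylated partners, rose from 44.2 ± 5.06 to 62.6 ± 6.32 FPKM, by 0.49 ± 0.10 (SE, adjusted p = 0.0491). Casein kinase 1-like 3 (Sp19g00191) showed the smallest called change, from 90.4 ± 4.66 to 122 ± 12.8 FPKM, by 0.43 ± 0.09 (SE, adjusted p = 0.0461).

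Both called genes of the clock and light group fell. TIME FOR COFFEE (Sp01g00268), a regulator of the Arabidopsis clock, had 23.6, 20.4, 24.2 and 21.2 FPKM in control and 19.1, 15.3, 14 and 13.9 FPKM without phosphate. No-phosphate library 5 was the nearest to the controls, and the change was -0.50 ± 0.10 (SE, adjusted p = 0.0465). EID1-like F-box protein 2 (Sp09g00997), related to a regulator of phytochrome A signalling, had 10.6, 15.1, 15 and 11.2 FPKM in control and 7.46, 4.21, 4.34 and 6.86 FPKM without phosphate. All no-phosphate values were below all controls, a change of -1.08 ± 0.19 (SE, adjusted p = 0.0287).

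Stress proteins, hydrolases and wall enzymes numbered 7, with 6 higher and 1 lower. A serine hydrolase with the FSH1 domain (Sp07g00968) had 45.5, 43.6, 36.6 and 43.7 FPKM in control and 53.5, 108, 109.8 and 145 FPKM without phosphate. Library 5 was again much nearer to the controls than libraries 6, 7 and 8, and the change was 1.20 ± 0.24 (SE, adjusted p = 0.0455). The gene that fell, a homolog of a fungal hydrolase named tropI (Sp04g00300), had 10.7, 10.9, 30.7 and 11.2 FPKM in control and 5.96, 4.15, 5.04 and 2.5 FPKM without phosphate. It showed the largest fall of the called genes, -1.54 ± 0.28 (SE, adjusted p = 0.0307), with control library 3 far above the other 3 controls. A dehydrin (Sp02g00888), a protein of drying and cold tolerance, rose from 108 ± 9.62 to 181 ± 17 FPKM, by 0.74 ± 0.11 (SE, adjusted p = 0.0194). Glucan endo-1,3-beta-glucosidase 14 (Sp04g00088), which cuts callose, rose from 60.7 ± 4.86 to 92.3 ± 7.6 FPKM, by 0.60 ± 0.11 (SE, adjusted p = 0.0287). Serine carboxypeptidase 3 (Sp10g01019) rose from 61 ± 7.04 to 87.7 ± 4.32 FPKM, by 0.52 ± 0.10 (SE, adjusted p = 0.0307). Aldehyde dehydrogenase 2C4 (Sp08g01130), which makes ferulic and sinapic acid in Arabidopsis, rose from 38.5 ± 5.48 to 57.2 ± 1.62 FPKM, by 0.57 ± 0.10 (SE, adjusted p = 0.0307). A SOUL heme-binding protein (Sp04g00752) went from 158 ± 21.8 to 262 ± 31.6 FPKM, by 0.73 ± 0.14 (SE, adjusted p = 0.0307).

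All 4 genes of RNA, translation and ubiquitin rose. Translation initiation factor 1A (Sp19g00087) rose from 291 ± 15.1 to 429 ± 62.7 FPKM, by 0.55 ± 0.11 (SE, adjusted p = 0.0386). RNA-DIRECTED DNA METHYLATION 3 (Sp01g00368), a factor of small RNA-guided silencing, rose from 15.1 ± 0.792 to 23.6 ± 3.24 FPKM, by 0.60 ± 0.11 (SE, adjusted p = 0.0328). The spliceosome protein YLS8 (Sp02g00538) rose from 201 ± 40.4 to 332 ± 49.8 FPKM, by 0.73 ± 0.15 (SE, adjusted p = 0.0459). Ubiquitin-conjugating enzyme 5A (Sp12g00429) rose from 219 ± 16.7 to 307 ± 26.3 FPKM, by 0.49 ± 0.10 (SE, adjusted p = 0.0386).

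A last group of 5 had only a domain or homolog of little known role, and all rose. Sp03g00485 had 19, 13.9, 13.4 and 13.7 FPKM in control and 19.2, 38, 41.7 and 39.6 FPKM without phosphate. For Sp08g00393 the values were 3.86, 4.65, 3.24 and 3.94 FPKM in control and 7.76, 8.01, 7.71 and 10.5 FPKM without phosphate. Those of Sp13g00071 were 18.9, 13.8, 12.2 and 12.3 FPKM in control and 20.2, 22.7, 28.3 and 36.8 FPKM without phosphate. None of the 3 had overlapping groups, although control library 1 came close to no-phosphate library 5 in Sp03g00485 and Sp13g00071. They rose by 1.11 ± 0.22 (SE, adjusted p = 0.0455), by 0.95 ± 0.17 (SE, adjusted p = 0.0287) and by 0.86 ± 0.17 (SE, adjusted p = 0.0386). Sp02g00178, a homolog of a cyanobacterial protein, had 33.9, 27.6, 26.6 and 23.4 FPKM in control and 36, 56.7, 53.1 and 54.6 FPKM without phosphate. Library 5 was the low one without phosphate and the change was 0.81 ± 0.16 (SE, adjusted p = 0.0446). Sp09g00158 rose from 97.9 ± 8.63 to 145 ± 18.8 FPKM, by 0.56 ± 0.11 (SE, adjusted p = 0.0455). Another 11 called genes, 8 higher and 3 lower, had neither homolog nor domain. These included the neighbours Sp17g00179 and Sp17g00180, 68 bp apart on the same strand of chromosome 17, which rose by 1.27 ± 0.21 (SE, adjusted p = 0.026) and by 1.19 ± 0.16 (SE, adjusted p = 0.0137).

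The classical genes of phosphate starvation were then taken as lists, matched by keyword to homolog and domain names, so some members merely share a word. Over all tested genes 0.355% were called higher and 0.0663% lower, and 8.83% were higher and 7.43% lower at an unadjusted p under 0.05. Across the 26 lists 59 named members were not called. Without control library 1 the test called 24 of them, without no-phosphate library 5 it called 39, without no-phosphate library 6 it called 15, and without any other single library at most 1. Of 50 tested phosphate transport genes, 2 rose (4%) and none fell, with a median change of 0.09 against -0.01 for all genes. Both are described above, PHOSPHOENOLPYRUVATE/PHOSPHATE TRANSLOCATOR 2 and HYP1, and HYP1 is listed by a domain annotated as a putative phosphate transporter. In this list 9 genes were higher (18%) and 5 lower (10%) at an unadjusted p under 0.05. The third member by adjusted p, mitochondrial phosphate carrier 1 (Sp14g00317), had 11.4 ± 3.33 FPKM in control and 17 ± 1.7 FPKM without phosphate, a change of 0.58 (adjusted p = 0.132). The following members were picked for their roles after values were seen. PHO1 (Sp02g00083), which loads phosphate into the xylem of Arabidopsis roots, had 152 ± 17.4 FPKM in control and 123 ± 19.3 FPKM without phosphate, and its change of -0.30 (adjusted p = 0.188) had a 95% interval of -0.53 to -0.07. PHO1 homolog 1 (Sp08g00286) had 8.15 ± 1.59 FPKM in control and 7.63 ± 1.35 FPKM without phosphate, with an interval of -0.47 to 0.30. The plastid phosphate transporter 2-1 (Sp16g00394) had 38.9 ± 4.36 FPKM in control and 44.5 ± 8.79 FPKM without phosphate, with an interval of -0.11 to 0.46.

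Of 17 tested genes of SPX and phosphate signalling, the ALTERED PHOSPHATE STARVATION RESPONSE 1 homolog rose (5.88%, against 0.355% of all genes) and none fell. The list median was -0.05. Among the 17, 4 were higher (23.5%) and 2 lower (11.8%) at an unadjusted p under 0.05, against 8.83% and 7.43% of all genes. An SPX membrane protein (Sp14g00562), of a family that moves phosphate into the vacuole, had 27.1 ± 3.75 FPKM in control and 42.2 ± 6.49 FPKM without phosphate and a change of 0.62 (adjusted p = 0.102). The third by adjusted p, a glycerol-3-phosphate acyltransferase (Sp01g01800), is listed only through a shared word in its description and had a change of -0.50 (adjusted p = 0.156). SPX DOMAIN-CONTAINING PROTEIN 3 (Sp08g00151), a marker of phosphate starvation in Arabidopsis and rice, had 18.5, 16.2, 26 and 19.4 FPKM in control and 23.4, 19.9, 20.8 and 16.8 FPKM without phosphate. The groups overlapped throughout, and the change was 0.02 ± 0.25 (SE, adjusted p = 0.977), with a 95% interval of -0.50 to 0.55. SPX proteins 2 (Sp08g01301) and 4 (Sp10g00487) had intervals of -0.09 to 0.61 and -0.37 to 0.19. Of the factors themselves, the 2 homologs of PHOSPHATE STARVATION RESPONSE 2 had 85.9 ± 5.42 FPKM in control and 86.2 ± 7.1 FPKM without phosphate (Sp02g00122), and 44.2 ± 5.93 FPKM in control and 54.9 ± 9.61 FPKM without phosphate (Sp09g00058), with intervals of -0.17 to 0.18 and 0.01 to 0.60. With 4 libraries a group these intervals leave room for changes of that size, so no level can be called unaltered. They hold for a single gene and are not adjusted for the number of genes tested. Sp09g00058 was not called, although its interval lies wholly on the side of a rise.

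In the 4 lists of inositol phosphates and of enzymes that release or save phosphate, 1 gene rose and 1 fell, both of inositol phosphate metabolism. Of 21 inositol phosphate genes that is 4.76% each way, against 0.355% and 0.0663% of all genes (list median 0.06). In that list 5 genes were higher (23.8%) and 1 lower (4.76%) at an unadjusted p under 0.05. Sp05g00658, a homolog of the phosphatase DSP1, had 45.8 ± 9.29 FPKM in control and 88 ± 22.5 FPKM without phosphate. Its change was 0.91 (adjusted p = 0.0567). None of 23 acid phosphatases passed (median 0.02), while 4 (17.4%) were higher and 0 lower at an unadjusted p under 0.05, against 8.83% and 7.43% of all genes. Purple acid phosphatase 17 (Sp07g00875), a phosphate starvation gene of Arabidopsis, had 437, 379, 424 and 374 FPKM in control and 513, 583, 684 and 754 FPKM without phosphate. The change was 0.64 (adjusted p = 0.0567), just short of the threshold. Purple acid phosphatase 27 (Sp10g00286) had a change of 0.47 (adjusted p = 0.107) and the acid phosphatase homolog of stem glycoprotein 31 (Sp06g01067) one of 0.74 (adjusted p = 0.172). None of 32 genes of nucleases, phosphodiesterases and pyrophosphatases passed (median -0.01), 5 being higher (15.6%) and 1 lower (3.12%) at an unadjusted p under 0.05, and the 3 nearest were inorganic pyrophosphatases. Sp08g00941, Sp06g01233 and Sp14g00038 had changes of 0.74 (adjusted p = 0.0506), 0.79 (adjusted p = 0.0567) and 0.63 (adjusted p = 0.12). None of 36 membrane lipid genes passed (median -0.03), 6 being higher (16.7%) and 2 lower (5.56%) at an unadjusted p under 0.05. The called galactolipid enzyme SFR2 (Sp10g00563), described above, is not matched by the keywords of this list. Monogalactosyldiacylglycerol synthase (Sp12g00726) had 64.4 ± 6.72 FPKM in control and 83.8 ± 9.63 FPKM without phosphate, a change of 0.37 (adjusted p = 0.123), TRIGALACTOSYLDIACYLGLYCEROL 2 (Sp10g01035) one of 0.50 (adjusted p = 0.143) and phospholipase D alpha 1 (Sp08g01305) one of -0.43 (adjusted p = 0.169), or -0.28 without no-phosphate library 8 (adjusted p = 0.451).

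In central carbon metabolism the median changes were 0.05 for 44 genes of glycolytic bypass and organic acids, 0.14 for 50 glycolysis genes and 0.05 for 61 respiratory chain genes, against -0.01 for all genes. Each list held 1 called gene, which rose and is described above, a share of 2.27%, 2% and 1.64% against 0.355% of all genes. Above 0 were 65.9%, 70% and 67.2% of their members, against 48.0% of all genes. Over the 26 lists this share ran from 25% for clock genes to 72.4% for nitrate, ammonium and sulfate uptake. It was also 67.2% for the wound and jasmonate list, which held no called gene, so such shares were not particular to carbon metabolism. In the same order 10 (22.7%), 11 (22%) and 10 (16.4%) were higher at an unadjusted p under 0.05, against 8.83% of all genes. Lower at that threshold were 3 (6.82%), 3 (6%) and 0 (0%), against 7.43%. Glyoxysomal malate dehydrogenase (Sp09g01079) had a change of 0.48 (adjusted p = 0.0738) and the NADP-dependent glyceraldehyde-3-phosphate dehydrogenase (Sp12g00673), which skips an ATP-forming step, one of 0.82 (adjusted p = 0.0763). Phosphofructokinase 3 (Sp13g00568) had 0.73 (adjusted p = 0.0683) and phosphoglycerate kinase (Sp16g00554) 0.43 (adjusted p = 0.0999). The alternative oxidases Sp07g00995 and Sp09g00695, which pass electrons to oxygen without pumping protons, had 9.79 ± 1.57 FPKM in control and 18.8 ± 4.77 FPKM without phosphate for the first, and 45 ± 11.4 FPKM in control and 70.6 ± 13.6 FPKM without phosphate for the second. Their changes were 0.85 (adjusted p = 0.0506) and 0.66 (adjusted p = 0.0829). None of these named members other than the 3 called ones passed.

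**Figure D4:**
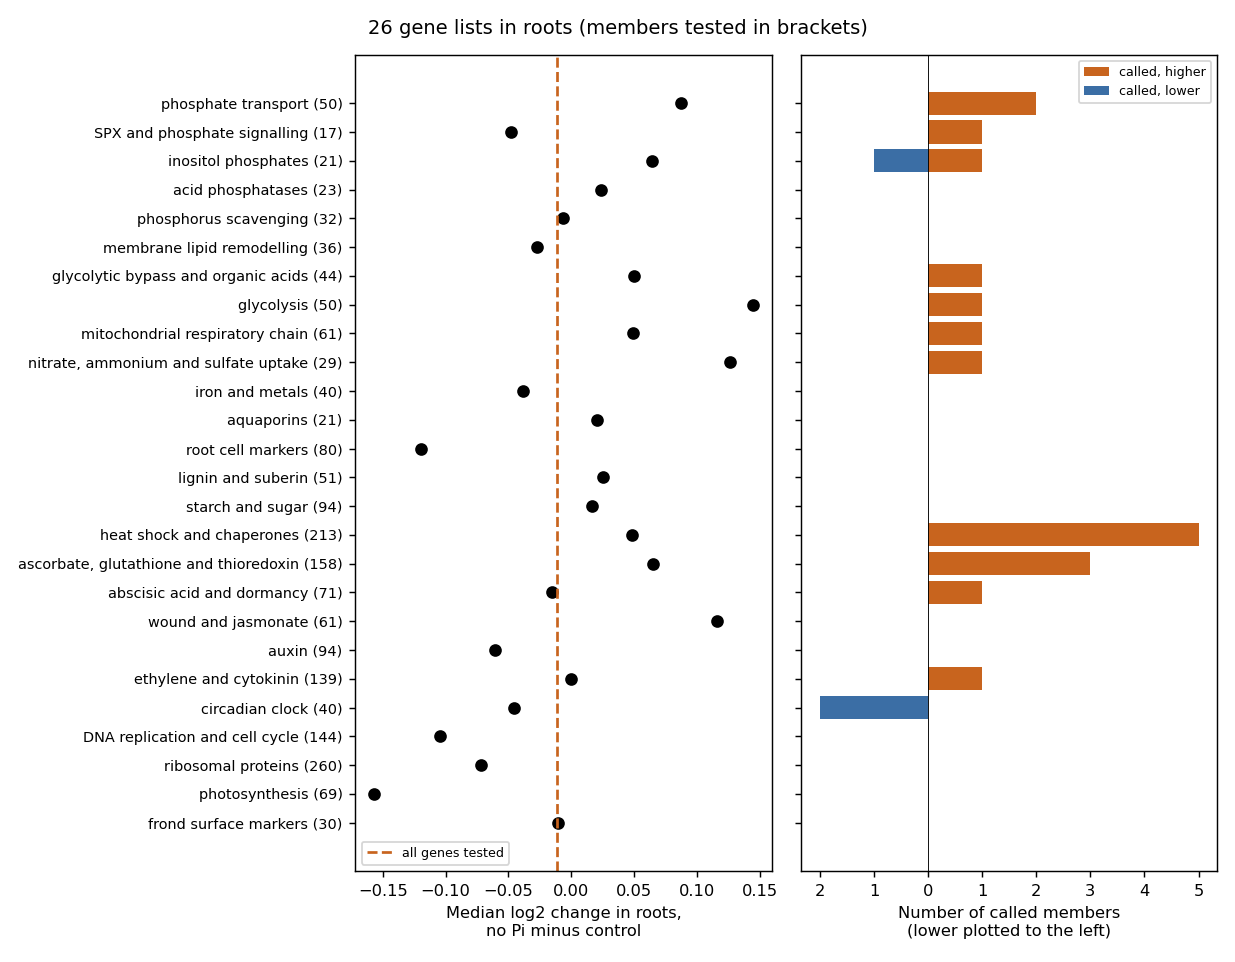
Median log2 change without phosphate for each of the 26 gene lists in roots, beside the median of all 16598 tested genes at -0.01 (left, dashed line), and the number of called members in each direction (right). Members tested are in brackets. Medians run from -0.16 for photosynthesis to 0.14 for glycolysis.

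The lists of other nutrients and water held 1 called gene. Of 29 genes of nitrate, ammonium and sulfate uptake, sulfate transporter 3.1 rose (3.45%, against 0.355% of all genes). The list median was 0.13. Among the 29, 11 were higher (37.9%) and 2 lower (6.9%) at an unadjusted p under 0.05, against 8.83% and 7.43% of all genes. Adenylylsulfate reductase 3 (Sp13g00992) and sulfite reductase (Sp03g00692), which reduce sulfate for cysteine, had 9.7 ± 4.74 FPKM in control and 27.4 ± 10.9 FPKM without phosphate for the first, and 34.9 ± 5.14 FPKM in control and 57.2 ± 13.3 FPKM without phosphate for the second, with changes of 1.43 (adjusted p = 0.0511) and 0.68 (adjusted p = 0.0542). Another adenylylsulfate reductase (Sp17g00278) and an ATP sulfurylase (Sp02g00744), picked after values were seen, had 89.9 ± 59.3 FPKM in control and 239.9 ± 97.4 FPKM without phosphate for the first, and 63.6 ± 46.1 FPKM in control and 191 ± 54.6 FPKM without phosphate for the second (adjusted p = 0.117 and 0.0567). None of 40 iron and metal genes passed (median -0.04), 3 being higher (7.5%) and 4 lower (10%) at an unadjusted p under 0.05. Nor did any of 21 aquaporins (median 0.02), 5 being higher (23.8%) and 3 lower (14.3%). The shares of all genes were 8.83% and 7.43%. The called copper-transporting ATPase HMA4 (Sp12g00525), described above, is not matched by the keywords of the metal list. Ferritin-3 (Sp01g01404) had a change of 0.51 (adjusted p = 0.0576), ferric reduction oxidase 4 (Sp14g00665) 0.97 (adjusted p = 0.0795) and the transporter YSL6 (Sp16g00270) -0.24 (adjusted p = 0.177). Aquaporin NIP3-1 (Sp11g00387) had 455 ± 81.3 FPKM in control and 812 ± 233 FPKM without phosphate. TIP1-2 (Sp01g01589) had 530.0 ± 276 FPKM in control and 1089.6 ± 239 FPKM without phosphate, and PIP1-3 (Sp01g01801) had 4803 ± 642 FPKM in control and 6838 ± 1272 FPKM without phosphate. The changes of these water channels were 0.81 (adjusted p = 0.0597), 1.13 (adjusted p = 0.0984) and 0.50 (adjusted p = 0.0988).

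Lists of root growth and identity held no called gene. At an unadjusted p under 0.05, 6 root markers were higher (7.5%) and 9 lower (11.2%), 9 lignin and suberin genes higher (17.6%) and 2 lower (3.92%), and 11 ribosomal protein genes higher (4.23%) and 11 lower (4.23%). Over all genes 8.83% were higher and 7.43% lower. Among 80 tested root markers the median was -0.12, with 0.69 (adjusted p = 0.121) for glutathione peroxidase 3 (Sp07g00584, listed by a shared word), which became 0.44 without control library 3 (adjusted p = 0.292), -0.68 (adjusted p = 0.126) for peroxidase 51 (Sp03g00423) and -0.83 (adjusted p = 0.142) for expansin B3 (Sp02g00461). For 51 lignin and suberin genes it was 0.03, with 0.55 (adjusted p = 0.0781) for cinnamyl alcohol dehydrogenase 1 (Sp20g00408), 0.27 (adjusted p = 0.136) for a 4-coumarate-CoA ligase-like gene (Sp04g00717) and 0.47 (adjusted p = 0.143) for caffeoylshikimate esterase (Sp08g00089). DNA replication and cell cycle genes numbered 144 with a median of -0.10. Cyclin D1-1 (Sp12g00284) had -0.87 (adjusted p = 0.0683), the plastid division protein FtsZ1 (Sp07g00664) -0.72 (adjusted p = 0.0775) and cyclin A1-3 (Sp08g00511) -0.96 (adjusted p = 0.109). The last of these was -1.32 without no-phosphate library 6 (adjusted p = 0.0121). At an unadjusted p under 0.05, 15 cell cycle genes were lower (10.4%) and 3 higher (2.08%), against 7.43% and 8.83% of all genes. Ribosomal protein genes, 260 of them, had a median of -0.07, with changes of 0.46 (adjusted p = 0.0799), -1.0 (adjusted p = 0.0955) and 0.31 (adjusted p = 0.108) for Sp13g00322, Sp20g00271 and Sp10g00992, all of plastid or bacterial type. Sp20g00271 is named as the chloroplast ribosome-binding factor PSRP1 and is listed by the name of its domain. For Sp20g00271 control library 3 stood far above the other controls, which had 30.4 to 41.5 FPKM, and the change was -0.64 without it (adjusted p = 0.182).

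Carbon storage, photosynthesis and the surface list held no called gene either. At an unadjusted p under 0.05, 15 starch and sugar genes were higher (16%) and 6 lower (6.38%), 8 photosynthesis genes higher (11.6%) and 6 lower (8.7%), and 3 surface genes higher (10%) and 1 lower (3.33%). Over all genes the shares were 8.83% and 7.43%. The 94 starch and sugar genes had a median of 0.02. Those with the smallest adjusted p were Sp01g01820 at 0.69 (adjusted p = 0.0567), Sp13g00355 at 1.40 (adjusted p = 0.0729) and Sp06g00647 at 0.50 (adjusted p = 0.0856). The last is a subunit of ADP-glucose pyrophosphorylase, the enzyme that feeds starch synthesis. Sp01g01820 is named as a pentatricopeptide repeat protein and listed by a starch binding domain. Sp13g00355 is listed by a domain of invertase or pectin methylesterase inhibitors. Its groups overlapped at low levels, 1.08 ± 0.764 FPKM in control and 4.88 ± 2.65 FPKM without phosphate. The 69 photosynthesis genes had a median of -0.16. Its members with the smallest adjusted p had changes above 0, namely 2 homologs of the photosystem II 22 kDa protein (Sp04g00161 and Sp16g00114), which sheds excess light, at 1.39 (adjusted p = 0.0567) and 0.86 (adjusted p = 0.0733), and a Rubisco activase (Sp01g01702) at 1.72 (adjusted p = 0.0718). The 30 frond surface genes had a median of -0.01, with 3-ketoacyl-CoA synthases 20 (Sp13g00643) and 19 (Sp02g00097) at 0.69 (adjusted p = 0.0733) and 0.86 (adjusted p = 0.113) and a wax ester synthase (Sp12g00148) at 0.35 (adjusted p = 0.099).

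Stress and hormone lists held further calls. Of 213 heat shock and chaperone genes 5 rose (2.35%, against 0.355% of all genes), the 5 of the chaperone group above. None fell (median 0.05). In this list 42 were higher (19.7%) and 8 lower (3.76%) at an unadjusted p under 0.05, against 8.83% and 7.43% of all genes. Of 158 genes of ascorbate, glutathione and thioredoxin 3 rose (1.9%) and none fell (median 0.06). Those that rose were GDP-L-galactose phosphorylase 1, thioredoxin-like 1-1 and YLS8, the last of which acts in splicing. Among the 158, 32 were higher (20.3%) and 12 lower (7.59%) at an unadjusted p under 0.05. Of 71 abscisic acid and dormancy genes the dehydrin rose (1.41%, median -0.02), while 8 were higher (11.3%) and 7 lower (9.86%) at an unadjusted p under 0.05. In that list a plastid isocitrate dehydrogenase (Sp05g00311, listed by a shared string) and the catalytic subunit of SNF1-related kinase (Sp20g00325), an energy sensor, had -0.68 (adjusted p = 0.0933) and 0.36 (adjusted p = 0.102). None of 61 wound and jasmonate genes passed (median 0.12), 4 being higher (6.56%) and 1 lower (1.64%) at an unadjusted p under 0.05, against 8.83% and 7.43% of all genes. Nor did any of 94 auxin genes (median -0.06), 10 being higher and 10 lower (10.6% each). For wounding the values were 0.65 (adjusted p = 0.0986) for a cysteine proteinase inhibitor (Sp10g00146), 0.30 (adjusted p = 0.169) for TIFY 3 (Sp03g01068) and 0.80 (adjusted p = 0.216) for a trypsin inhibitor (Sp05g00726), the last being 0.43 without control library 3 (adjusted p = 0.483). For auxin they were 0.57 (adjusted p = 0.108) for Sp03g00923, -0.88 (adjusted p = 0.116) for SAUR64 (Sp14g00451) and 0.33 (adjusted p = 0.121) for auxin response factor 18 (Sp08g00539).

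The call in the list of 139 ethylene and cytokinin genes (0.719%, against 0.355% of all genes, median 0.00) was HEAT SHOCK PROTEIN 83. It is listed by its histidine kinase-like ATPase domain. In this list 9 were higher (6.47%) and 16 lower (11.5%) at an unadjusted p under 0.05, against 8.83% and 7.43% of all genes. CYTOKININ RESPONSE FACTOR 2 (Sp19g00234) and histidine kinase 4 (Sp03g01139), a cytokinin receptor of Arabidopsis and rice, had 3.59 ± 0.739 FPKM in control and 1.47 ± 0.753 FPKM without phosphate for the first, and 24.7 ± 7.38 FPKM in control and 11.9 ± 4.7 FPKM without phosphate for the second. Their changes were -0.93 (adjusted p = 0.0504) and -1.01 (adjusted p = 0.0544), short of the threshold. In the list of 40 clock genes 2 fell (5%, against 0.0663% of all genes) and none rose. These were TIME FOR COFFEE and EID1-like F-box protein 2, both described above. The latter is listed by the keyword EID1 and is related to a regulator of phytochrome A signalling rather than named as a clock gene. Among the 40, 8 were lower (20%) and 1 higher (2.5%) at an unadjusted p under 0.05. The median was -0.05 against -0.01 for all genes, and 25% of members were above 0 against 48.0%. The lists with the nearest shares above 0 were photosynthesis with 30.4% and DNA replication and cell cycle with 33.3%. A GIGANTEA homolog (Sp05g00030), a clock protein that peaks late in the day in Arabidopsis, had 53.4, 43.7, 117 and 45.6 FPKM in control and 36.6, 21.6, 26.9 and 23.9 FPKM without phosphate. Control library 3 was far above the other controls, and the change was -1.12 (adjusted p = 0.0567), or -0.80 without that library (adjusted p = 0.117). It passed without control library 1, at -1.18 (adjusted p = 0.0426), and without no-phosphate library 5, at -1.27 (adjusted p = 0.0162). A PRR95 homolog (Sp20g00272), picked after values were seen, had 4.04, 5.66, 37.3 and 5.86 FPKM in control and 2.41, 0.934, 1.86 and 2.33 FPKM without phosphate. Control library 3 stood apart there too, and the change was -1.78 (adjusted p = 0.106), or -1.12 without it (adjusted p = 0.218). The hour of harvest is not given in the sources used here.

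Some transcripts separated the libraries in a way the treatment labels did not, and these were picked after their values were seen. The ERF109 homolog (Sp18g00449), a fast stress-induced transcription factor in Arabidopsis, had 32.1, 2.47, 3.3 and 0.654 FPKM in control and 2.17, 67.1, 28.1 and 23 FPKM without phosphate. A BHLH148 homolog (Sp01g00308) had 21, 1.05, 1.24 and 0.443 FPKM in control and 2.76, 59.3, 29.6 and 10.2 FPKM without phosphate. Control library 1 was with no-phosphate libraries 6, 7 and 8 for both genes, and no-phosphate library 5 with the other controls. A copper transporter homolog (Sp01g01748) had 127, 954, 872 and 178 FPKM in control and 834, 31.8, 42 and 110.4 FPKM without phosphate. There control libraries 1 and 4 were low beside no-phosphate libraries 6 to 8, and library 5 was as high as control libraries 2 and 3. Their changes, with adjusted p-values, were 1.88 (adjusted p = 0.358), 2.26 (adjusted p = 0.248) and -1.80 (adjusted p = 0.33), and none was called. The part of this division of the libraries in the called genes was not tested beyond the values without libraries 1 and 5.

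The root changes were set beside those of fronds from the same medium. In fronds 732 genes (4.41%) were called, 351 of them higher (2.11%). Of the 70 root genes 32 were also called in fronds, all in the same direction, 29 higher and 3 lower. That is 45.7% of the root list and 4.37% of the frond list. Fronds and roots came from the same flasks and shared 1 estimate of the spread, so the lists are not independent. The sign of the change was the same in both tissues for 66 root genes and opposite for 4. The root genes were chosen on their root values, so a smaller size in fronds (median 0.55) tells nothing of the tissues. The test of the difference itself, the root change minus the frond change, called 0 of 16598 genes (0%) by limma, with a smallest adjusted p of 0.0645. At an unadjusted p under 0.05 there were 1843 (11.1%), and 25 of the 70 root genes were among them. The 70 were chosen on the root change, which is part of this difference, so that count tells nothing of the tissues. Fitted with voom 2 genes passed, and after rescaling 2.

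Individual genes had similar or different changes without a called difference. Cis-prenyltransferase 4 changed by 2.22 ± 0.39 (SE, adjusted p = 0.00815) in fronds and inositol-3-phosphate synthase by 1.60 ± 0.23 (SE, adjusted p = 0.00359). PHOSPHOENOLPYRUVATE/PHOSPHATE TRANSLOCATOR 2 had 0.70 ± 0.29 (SE, adjusted p = 0.176) in fronds, and its root minus frond difference was 1.01 ± 0.41 (SE, adjusted p = 0.398). For phosphoenolpyruvate carboxylase the frond value was 0.52 ± 0.17 (SE, adjusted p = 0.0869). For SPX DOMAIN-CONTAINING PROTEIN 3 it was 1.41 ± 0.25 (SE, adjusted p = 0.00857), a call in fronds beside the root change of 0.02, and the difference of -1.38 ± 0.35 (SE, adjusted p = 0.27) did not pass. Inositol-tetrakisphosphate 1-kinase 5 had 0.29 ± 0.09 (SE, adjusted p = 0.0948) in fronds against its fall in roots, a difference of -0.77 ± 0.13 (SE, adjusted p = 0.0998). By this fit the phosphate effect was not shown to differ between roots and fronds for any gene.

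**Figure D5:**
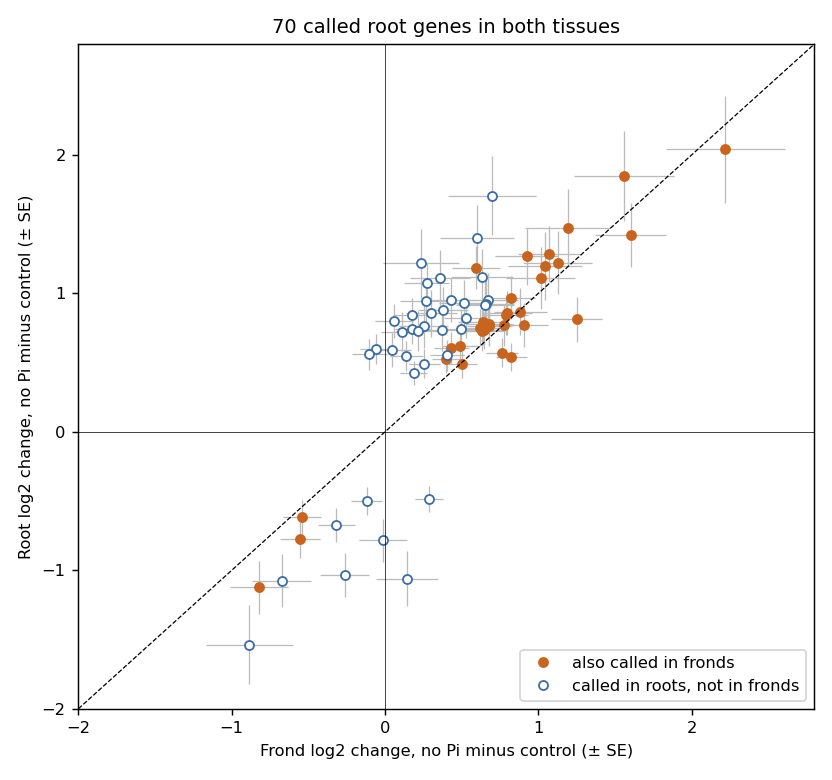
Log2 change without phosphate in fronds (horizontal axis) and roots (vertical axis) for the 70 called root genes, with SE as bars and a dashed line where both are equal. The 32 genes also called in fronds are filled and lie on the same side of 0 in both tissues, and 4 open points have opposite signs.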

How the data were processed

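Polyadenylated RNA of Spirodela polyrhiza roots and fronds was read in pairs of 150 bp on 4 pools, per the labels' protocols, for each tissue and treatment, with 1 flask behind a pool. The submitters' processing notes name HISAT2 2.0.5 and featureCounts 1.5.0-p3. Genome build, annotation and use of strand were not given in the sources used here. The authors deposited FPKM values, as the file headers say, in a table of 20389 genes with lengths, positions, homologs and domains, and 1 line beside these was not used here. As 98.4% of the lengths are multiples of 3, they are called coding length. Multiplied by length, 100% of values were whole multiples of 1 step (tolerance 0.001), which gives the reads behind them. The library size in that step was 1.03 to 1.14 times the summed reads of root libraries, a scaling by the authors of which no label speaks.

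Values were taken to log2(FPKM + 1), which understates changes of low genes, and the 16598 genes averaging 0.5 FPKM or more over 16 libraries were fitted with a mean per group in limma 3.58.1 (R 4.3.3, statmod 1.5.0, trended robust prior, 12 residual degrees of freedom). All 16 libraries shared 1 estimate of the spread. Roots without phosphate were set against control roots, fronds likewise, and the difference of both contrasts was taken, with two-sided p-values adjusted by Benjamini-Hochberg over all tested genes and calls at an adjusted p under 0.05. Confidence intervals of changes are 95% intervals per gene from that fit, not adjusted for the number of genes tested. Columns carry numbers 1 to 8 per tissue and not the replicate number of the labels, so control and no-phosphate roots were not paired. No root libraries agreed within sampling noise (chi-square per degree of freedom at least 9.26).

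All called genes with a homolog or domain were named, with 8 values for the 30 largest rises and all falls and means for 21 other rises, together with the 3 members of smallest adjusted p in each of 26 keyword lists. The comparison, members and lists were chosen with earlier results of these data known. Methods were tested on simulated data. Alternatives changed the pseudocount, filter, scaling, prior, weights and libraries. Tests made for raw counts were not run, as the deposited unit is FPKM.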

Additional observations from a re-analysis of the deposited data

Results flagged for a closer look

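Among 258 pairs of a named gene and a root group, 21 had 1 library farther from the other 3 than Dixon's 95% critical value allows, and chance flags about 1 in 20. The lists of values below give the FPKM of that library. Control library 1 stood apart at 31.5 for Sp17g00180, 19.0 for Sp03g00485, 39.6 for Sp03g01123, 122 for the dehydrin Sp02g00888, 940 for aquaporin TIP1-2 (Sp01g01589) and 108 for isocitrate dehydrogenase Sp05g00311. Control library 3 stood apart at 26.4 for the DnaJ homolog Sp03g01088, 30.7 for the tropI homolog Sp04g00300, 128 for phospholipase D alpha 1 (Sp08g01305), 90.6 for the ADP-glucose pyrophosphorylase subunit Sp06g00647, 117 for GIGANTEA (Sp05g00030) and 100 for Sp20g00271. Control library 4 did so at 53.5 for the endo-glucosidase Sp04g00088, 58.3 for the 4-coumarate-CoA ligase-like gene Sp04g00717 and 31.7 for ribosomal protein Sp13g00322. Without phosphate, library 5 stood apart at 19.2 for Sp03g00485, 36.0 for Sp02g00178, 371 for PDX1 (Sp01g01840) and 11.6 for the alternative oxidase Sp07g00995, library 6 at 5.85 for cyclin A1-3 (Sp08g00511) and library 8 at 10.5 for Sp08g00393.

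In 2 genes all no-phosphate libraries lay beyond all controls in both tissues, but on opposite sides in roots and fronds. Inositol-tetrakisphosphate 1-kinase 5 was the lower one in roots and NIP3-1 the higher one. For inositol-tetrakisphosphate 1-kinase 5 (Sp09g00677) the root change minus the frond change was -0.769 on the log2 scale, and for aquaporin NIP3-1 (Sp11g00387) it was 1.18. The differences themselves were tested by limma and neither passed (adjusted p = 0.0998 and 0.226).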

How the results depend on the processing

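The number of called root genes, 70, became 0 with the root libraries fitted alone (1786 at an unadjusted p under 0.05), 25 with FPKM rescaled to the same sum, 46 with TMM scaling of the recovered reads, 126 with voom, 508 with array weights and 1604 without control library 1 and no-phosphate library 5, an alternative chosen after seeing the data. Leaving out 1 library at a time gave 0 to 791. It stayed within 59 to 103 under the other pseudocounts, filters and prior. All 70 kept their direction in every alternative that tested them, and 0 of 129 named genes reversed. Called genes were chosen on the same values, and for those with groups that do not overlap no left-out library could reverse the direction. The test of root minus frond changes, 0 genes, gave 2 with rescaled FPKM, 2 with voom, 1 with array weights, 6 without libraries 1 and 5, and 0 to 116 with 1 library left out, the 116 without no-phosphate library 6. The cause of these shifts was not tested. No scaling moved the median of all genes by more than 0.046. A replicate block of frond and root libraries with the same column number called 72 genes. The deviations of such libraries correlated by -0.116 to 0.147, and 2 of 8 root libraries correlated best with their own number, so the numbers were not taken to pair them. No paired analysis was possible between control and no-phosphate roots because the columns carry no replicate number of the labels. The planned count models were not run, as the unit is FPKM. Depth limits genes near 1 FPKM, where 3 reads on 1 kb are worth 0.213 to 0.435 FPKM.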
